A study of Mus musculus with 14 samples.

Results

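The genes described here are 37 genes of glucose breakdown and of the response to low oxygen. They were taken by symbol from a table of 20193 genes, whose RNA was read on Affymetrix arrays in HL-1, a mouse atrial heart muscle line. All 37 symbols were found, with 1 row each, and none was filtered out. The cells had been transfected with 10 nM of siRNA in RNAiMax, and 3 groups were compared. The control group, siScramble, has 6 arrays, and each of the Airn groups, siAirn-001.1 and siAirn-001.2, has 4. Airn is a long non-coding RNA read antisense to Igf2r on the paternal chromosome. All arrays came from the same established line and all cells received an siRNA, so no untransfected group enters any comparison. The sources used here do not say what sets the Airn reagents apart. Arrays carry a replicate number within their group, 1 to 6 for siScramble and 1 to 4 for each reagent, and the members were compared both between groups and between arrays numbered 1 and 2 and arrays numbered 3 and 4. The labels call the arrays biological replicates without saying whether they were separate cultures, or whether a number marks a day, so the p-values measure the spread between these arrays.

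Glycolysis turns glucose into pyruvate. Pyruvate then either enters the mitochondrion as acetyl-CoA or is reduced to lactate and exported. When oxygen falls, the prolyl hydroxylases that mark HIF-1 alpha for destruction slow down, the factor accumulates, and it binds a short DNA core (RCGTG, where R is A or G) near genes for glucose uptake, glycolytic enzymes, lactate export, vessel growth and mitophagy. Heart muscle normally relies mainly on fatty acids and turns to glycolysis when oxygen is short.

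The stretch before the start site of Bnip3, which showed one of the largest differences described below, contains the core on both strands and is shown for that reason. These are the 250 bases upstream on the minus strand of chr7:138909507-138909756, from RefSeq's annotation of GRCm38.p6, written 5′ to 3′. Capitals mark ACGTG or GCGTG on either strand, and the CACGTG in the middle holds an ACGTG core on each strand.
Bnip3: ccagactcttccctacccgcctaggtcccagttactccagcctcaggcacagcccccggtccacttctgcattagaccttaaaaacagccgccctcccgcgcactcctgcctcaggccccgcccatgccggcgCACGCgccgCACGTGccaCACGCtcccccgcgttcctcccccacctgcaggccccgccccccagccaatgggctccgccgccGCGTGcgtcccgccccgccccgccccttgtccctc

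Of the 37 members, 34 matched a RefSeq promoter entry, and Slc2a4, Ndrg1 and Bhlhe40 did not. In the 250 bases before any listed start, 19 of the 34 (55.9%) held ACGTG on either strand, against 18.5% of 27025 genes. With GCGTG counted too, 31 of 34 (91.2%) held a core, against 41.5% of all genes. The longer palindrome CACGTG stood in 4 (11.8%), against 6.86% of all genes. The core was about as frequent in members that were lower in siAirn arrays 3 and 4, described below (7 of 13, 53.8%), as in the other members (12 of 21, 57.1%). By single window, ACGTG stood in 45.1% of 51 member windows and 16.6% of 32851 windows of all genes. The 27025 genes are those with a RefSeq promoter entry, not the genes of the arrays, and base composition was not matched. These counts describe letters in a window and say nothing of binding. Stretches of 60 bases around the ACGTG core nearest the start illustrate this: Egln3 and Slc16a3 were lower in those arrays, while Pgk1 and Hk2 did not pass that test.
Egln3 (chr12:54204065-54204124, minus strand): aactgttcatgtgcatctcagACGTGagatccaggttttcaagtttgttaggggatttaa
Slc16a3 (chr11:120949007-120949066, plus strand): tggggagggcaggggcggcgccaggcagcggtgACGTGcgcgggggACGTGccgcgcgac
Pgk1 (chrX:106186942-106187001, plus strand): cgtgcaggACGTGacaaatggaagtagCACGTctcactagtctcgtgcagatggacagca
Hk2 (chr6:82774474-82774533, minus strand): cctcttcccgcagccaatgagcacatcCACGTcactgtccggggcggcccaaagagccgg

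The values are log2 levels after RMA, which equalises the arrays' distributions. Array medians lay between 7.45 and 7.55, any pair had a correlation of 0.988 to 0.998 over genes, and precision is limited by how few arrays there are. Of 13 measured atrial cardiomyocyte markers, 11 were above the array median, and Sln and Gja5 were below it. Airn was at 11.78 to 12.16 in the 6 siScramble arrays. The 4 arrays of siAirn-001.1, by number, gave 11.89, 11.82, 10.94 and 10.93. Those of siAirn-001.2 gave 11.93, 11.67, 10.71 and 10.85. The targeted transcript was therefore clearly below siScramble in the arrays numbered 3 and 4 of both reagents, while 3 of the 4 arrays labelled siAirn and numbered 1 or 2 lay within the siScramble range. Arrays 5 and 6 of siScramble differed from arrays 1 to 4 in several genes, among them the fibroblast-associated matrix genes Dcn, Lum and Postn (1.64, 1.26 and 1.82 higher on the log2 scale in arrays 1 to 4). The mean of 8 fibroblast markers was 7.41 to 7.48 in siScramble arrays 1 to 4 and 6.80 to 6.97 in siScramble arrays 5 and 6. It was 6.67 to 6.97 in siAirn arrays 1 and 2 and 7.22 to 7.31 in siAirn arrays 3 and 4. This mean moved through Dcn, Lum and Postn: the other 5 markers were not called in either division, and the median difference over the 8 was 0.11 for siScramble arrays 1 to 4 minus 5 and 6 and 0.08 for siAirn arrays 3 and 4 minus 1 and 2. For members called between the groups, the mean difference from siScramble is given with and without siScramble arrays 5 and 6. Where the atrial markers and the other pathway genes are set against siScramble as a group, all 6 arrays were used.

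**Figure D1:**
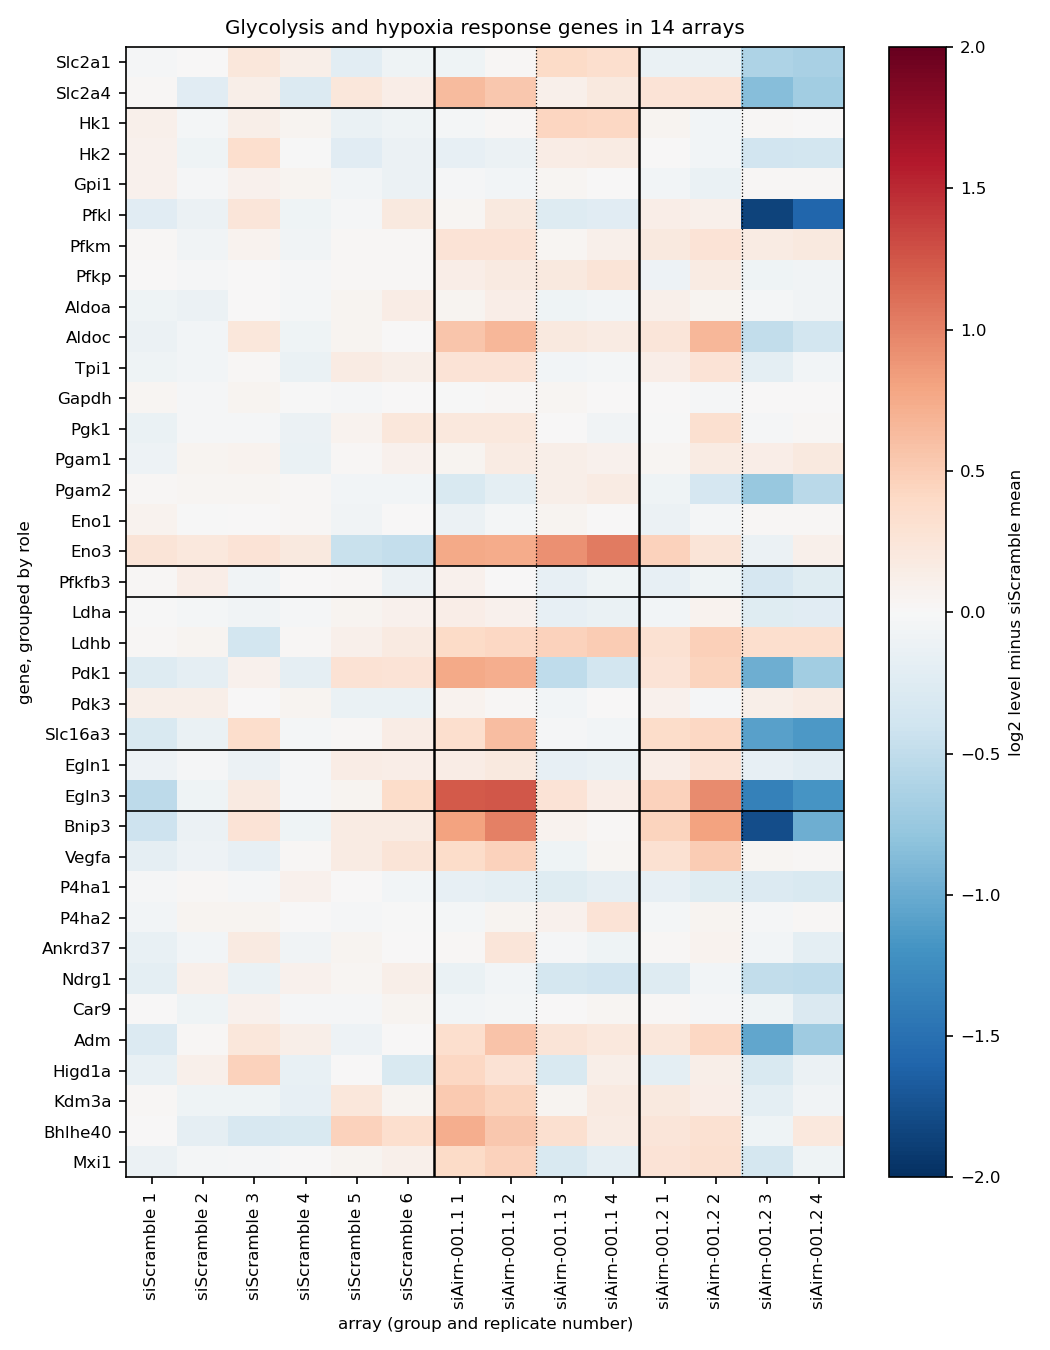
Heat map of the 37 members (rows, grouped by role) in 14 arrays (columns, by group and replicate number), coloured by the log2 level minus the siScramble mean of that gene. The darkest blue cells include Pfkl in siAirn-001.2 arrays 3 and 4 and Bnip3 in array 3 (8.55 against a siScramble mean of 10.33). The darkest red cells include Egln3 in siAirn-001.1 arrays 1 and 2 (10.56 and 10.58 against 9.34).

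Between the groups as a whole, few members differed. A member is called here when its adjusted p in limma, over all 20193 genes, is under 0.05. For the mean of both reagents minus siScramble, 3 of 37 members were called, in a comparison that called 4.13% of all genes: the muscle enolase Eno3 and the lactate dehydrogenase subunit Ldhb were higher, and the collagen prolyl hydroxylase subunit P4ha1 was lower. Over all genes, 2.15% were called higher and 1.97% lower. The median log2 difference was 0.03 over the members and -0.00 over all genes. siAirn-001.1 minus siScramble called the same 3 genes (5.96% of all genes, 3.43% higher and 2.53% lower), and siAirn-001.2 minus siScramble called P4ha1 alone (0.951% of all genes, 0.47% lower). All these comparisons share the 6 siScramble arrays.

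Ldhb, the subunit typical of heart that favours the step from lactate to pyruvate, ranged from 10.27 to 10.82 in the siScramble arrays, with a median of 10.68. It was 11.02, 11.06, 11.10 and 11.15 in siAirn-001.1 and 10.95, 11.11, 10.97 and 10.97 in siAirn-001.2, by array number. All 8 siAirn arrays lay above all 6 siScramble arrays, which 0.891% of all genes did. The log2 difference of the mean of both reagents was 0.40 ± 0.07 (SE), 1.32-fold higher, with an adjusted p of 0.00569 in limma. By reagent it was 0.44 ± 0.09 (adjusted p = 0.00708) and 0.36 ± 0.09 (adjusted p = 0.062). Without siScramble arrays 5 and 6 the mean difference was 0.47 (adjusted p = 0.00396), and siAirn-001.2 was then called as well (0.43, adjusted p = 0.0278). The mean difference was also called within the numbers, at 0.36 ± 0.08 among arrays 1 and 2 alone (adjusted p = 0.0222) and 0.57 ± 0.11 among arrays 3 and 4 alone (adjusted p = 0.0457). siAirn-001.2 on its own was called in neither subset (adjusted p = 0.0645 and 0.0805). The second subset includes siScramble array 3, whose 10.27 was the lowest value. With all arrays, the call for the mean held in each of 14 fits that left out 1 array.

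P4ha1, which hydroxylates proline in collagen and is a known HIF target, lay in the opposite direction. It was 10.26 to 10.39 in siScramble (median 10.30), 10.06 to 10.14 in siAirn-001.1 and 10.01 to 10.15 in siAirn-001.2. All 8 siAirn arrays lay below all 6 siScramble arrays, as for 0.738% of all genes. The log2 difference was -0.22 ± 0.05, 1.17-fold lower (adjusted p = 0.0126), and it was -0.20 and -0.25 for the reagents (adjusted p = 0.0437 and 0.0444). Without siScramble arrays 5 and 6 the mean was -0.23 (adjusted p = 0.0228), and the call for siAirn-001.1 was lost (-0.21, adjusted p = 0.0608). Among arrays 1 and 2 alone it was -0.19 (adjusted p = 0.155), and among arrays 3 and 4 alone -0.28 (adjusted p = 0.144). When each array was left out in turn, the call for the mean held in all 14 fits, and each reagent's own call was lost in 11 of 14. Its paralog P4ha2 was at 8.58 to 8.92 on all arrays and was not called.

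Eno3, the enolase of striated muscle, was called with siAirn-001.1 but not with siAirn-001.2. In siScramble arrays 1 to 4 it was 10.81, 10.76, 10.82 and 10.74, and in arrays 5 and 6 it was 10.10 and 10.08. The siAirn-001.1 arrays, at 11.31, 11.29, 11.46 and 11.59, were above every siScramble array. The siAirn-001.2 arrays, at 11.01, 10.80, 10.44 and 10.65, overlapped the siScramble range. The log2 difference was 0.86 ± 0.16 for siAirn-001.1 (1.81-fold higher, adjusted p = 0.00402), and 0.52 ± 0.13 for the mean of both (adjusted p = 0.0352). Without siScramble arrays 5 and 6 the mean difference was 0.29 (adjusted p = 0.0901) and was no longer called, and it was lost in 8 of 14 fits that left out 1 array. The call for siAirn-001.1 held without them, at 0.63 (adjusted p = 0.00358). Of the 13 atrial cardiomyocyte markers, 4 (Tnni3, Gja5, Nkx2-5 and Tbx5) were also called higher with siAirn-001.1, where 3.43% of all genes were. The median over the 13 was 0.21. With siAirn-001.2 none was called higher (median -0.04). Gja1 was called lower there (-0.36, adjusted p = 0.0283 in limma), as were 0.47% of all genes. The part of these markers in the result was not tested.

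Bhlhe40, a transcriptional repressor of the clock, was not called against all 6 siScramble arrays (0.30 for the mean, adjusted p = 0.241) but was called without siScramble arrays 5 and 6. It was 10.25, 10.06, 9.92 and 9.94 in siScramble arrays 1 to 4 and 10.70 and 10.57 in arrays 5 and 6. The siAirn-001.1 arrays were at 10.96, 10.78, 10.56 and 10.40, and the siAirn-001.2 arrays at 10.48, 10.55, 10.16 and 10.45. All siAirn-001.1 arrays exceeded siScramble arrays 1 to 4 and overlapped arrays 5 and 6. Without those 2 arrays the mean difference was 0.50 ± 0.11 (adjusted p = 0.0149), with 0.63 for siAirn-001.1 (adjusted p = 0.00789) and 0.37 for siAirn-001.2 (adjusted p = 0.149).

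**Figure D2:**
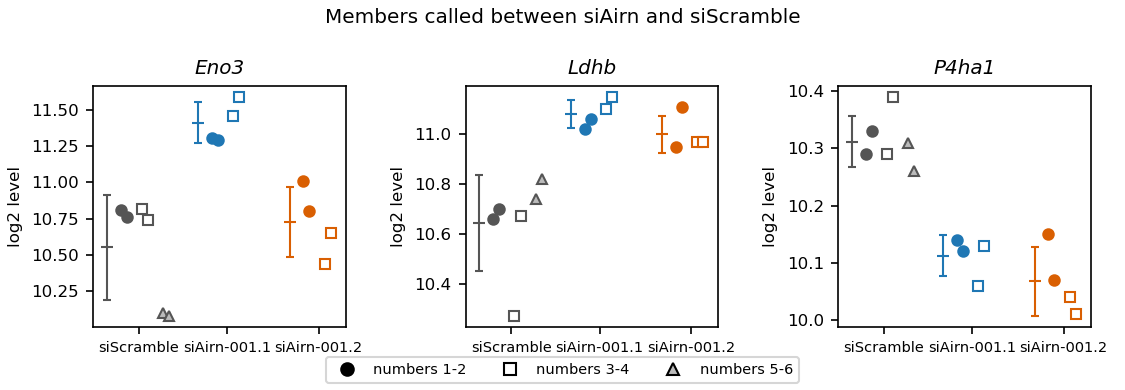
Log2 level of Eno3, Ldhb and P4ha1 on each array, by group, with the marker shape showing the replicate number. Bars at the left of each group are the mean ± SD (n = 6, 4 and 4), and the siAirn arrays do not overlap the siScramble arrays for Ldhb and P4ha1.

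Set against each other directly, siAirn-001.2 minus siAirn-001.1 called 0 of 37 members at 1.01% of all genes, although 10 had an unadjusted p under 0.05. The median over the members was -0.10, and 33 of 37 were lower with siAirn-001.2, as were 47.1% of all genes. The largest differences were in Egln3 (-1.0 ± 0.41, adjusted p = 0.299) and Bnip3 (-0.85 ± 0.41, adjusted p = 0.393). Arrays of the same number deviated together in these 2 reagents. With the number as a replicate block, Eno3 was called in limma (-0.68 ± 0.11, adjusted p = 0.0131). It was also called without any block once siScramble arrays 5 and 6 were left out (-0.68 ± 0.11, adjusted p = 0.00858). The call therefore does not rest on the block. Among arrays 3 and 4 alone, 12 members were called lower with siAirn-001.2 (9.72% of all genes were called, 5.29% lower), and among arrays 1 and 2 alone none was (0.0594% of all genes), with 7 at an unadjusted p under 0.05.

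The arrays of each reagent were themselves split by number in many of these genes. Among the 8 siAirn arrays, 17 of 37 members differed between arrays 3 and 4 and arrays 1 and 2, where 17.3% of all genes did. Of these, 16 were lower in arrays 3 and 4 (9.13% of all genes were called lower) and only Hk1 was higher (8.18% of all genes). The median log2 difference was -0.18 over the members and -0.02 over all genes. In 16 members all 4 siAirn arrays numbered 3 or 4 lay below all 4 numbered 1 or 2, as in 6.80% of all genes. In 2 members, Gpi1 and Eno1, they all lay above, as in 6.81% of all genes. Leaving out each array in turn, the call was lost in 5 of 14 fits for Hk1, 4 for Bhlhe40 and 2 for Ndrg1, and in none for the other 14 members. The Airn signal moved the same way, by -0.97 ± 0.08 (adjusted p = 9.66e-06), and the matrix genes Dcn (1.62), Postn (1.05) and Lum (1.05), 3 of the 8 fibroblast markers, moved the other way. The part of the siRNA, of the cells' makeup and of whatever the numbers mark in these differences was not tested, and in such bulk samples fewer cells of a type cannot be told apart from less RNA per cell.

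Egln3, a prolyl hydroxylase that senses oxygen and is itself induced by HIF, had the largest difference among the members. It was 8.82 to 9.71 in siScramble (median 9.36). It was 10.56, 10.58, 9.62 and 9.48 in siAirn-001.1 and 9.80, 10.29, 7.99 and 8.16 in siAirn-001.2. All 4 siAirn arrays numbered 1 or 2 stood above every siScramble array, and siAirn-001.2 arrays 3 and 4 below every other array. The difference of arrays 3 and 4 from 1 and 2 was -1.50 ± 0.12, 2.82-fold lower (adjusted p = 8.45e-06). Egln1, the main hydroxylase of HIF-1 alpha, varied less. It was 11.36 to 11.63 in siScramble (median 11.45). The siAirn-001.1 values were 11.63, 11.67, 11.32 and 11.35, and the siAirn-001.2 values 11.62, 11.75, 11.31 and 11.27. Its values fell apart by number without overlap in both reagents, at -0.36 ± 0.06 (adjusted p = 0.000912).

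Among the genes of pyruvate and lactate, Pdk1, the kinase that shuts pyruvate dehydrogenase off, showed the lowest adjusted p of all members. It was 8.86 to 9.41 in siScramble, with a median of 9.07. It was 9.87, 9.84, 8.61 and 8.75 in siAirn-001.1 and 9.40, 9.57, 8.14 and 8.43 in siAirn-001.2. In both reagents arrays 3 and 4 were below every siScramble array, and arrays 1 and 2 were at 9.40 or more, near or above the highest siScramble value. The difference was -1.19 ± 0.08, 2.28-fold lower (adjusted p = 2.39e-06). The lactate exporter Slc16a3 (MCT4) was 10.36 to 11.02 in siScramble (median 10.66), 11.01, 11.29, 10.65 and 10.61 in siAirn-001.1, and 11.03, 11.08, 9.59 and 9.52 in siAirn-001.2. Its siAirn-001.1 arrays 3 and 4 lay inside the siScramble range and its siAirn-001.2 arrays 3 and 4 far below it, with a joint difference of -1.01 ± 0.09 (adjusted p = 1.54e-05). Ldha, the subunit that favours lactate formation, was 0.25 ± 0.05 lower on the log2 scale (adjusted p = 0.00764), and Ldhb (0.01) and the kinase Pdk3 (0.02) were not called.

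Of the other HIF targets, Bnip3, which directs mitochondria to autophagy, had the widest range of all. It was 9.91 to 10.61 in siScramble (median 10.37), 11.13, 11.33, 10.40 and 10.36 in siAirn-001.1, and 10.77, 11.14, 8.55 and 9.35 in siAirn-001.2. The siAirn arrays 1 and 2 all exceeded siScramble, siAirn-001.1 arrays 3 and 4 fell within it, and siAirn-001.2 arrays 3 and 4 were below it. The difference between the numbers was -1.43 ± 0.15, 2.70-fold lower (adjusted p = 4.88e-05). Adm, the vasodilator peptide adrenomedullin, was 11.05 to 11.56 in siScramble (median 11.35). In siAirn-001.1 it was 11.67, 11.90, 11.58 and 11.54, and in siAirn-001.2 it was 11.56, 11.74, 10.29 and 10.62. Only the arrays 3 and 4 of siAirn-001.2 dropped below siScramble, and the joint difference was -0.71 ± 0.09 (adjusted p = 0.000251).

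Mxi1, a Max partner that opposes Myc, was 8.54 to 8.75 in siScramble (median 8.64), 9.03, 9.11, 8.34 and 8.45 in siAirn-001.1, and 8.93, 8.97, 8.30 and 8.56 in siAirn-001.2. Its difference was -0.59 ± 0.07 (adjusted p = 7.45e-05), with -0.67 in siAirn-001.1 and -0.52 in siAirn-001.2. Vegfa, the main growth signal for vessels, was 9.74 to 10.18 in siScramble (median 9.89). It was 10.28, 10.38, 9.84 and 9.96 in siAirn-001.1 and 10.22, 10.42, 9.96 and 9.95 in siAirn-001.2. Both reagents lay above all siScramble arrays at numbers 1 and 2 and within them at numbers 3 and 4, with a difference of -0.39 ± 0.07 (adjusted p = 0.00185). Kdm3a, a histone H3 demethylase, was 9.79 to 10.18 in siScramble (median 9.92), 10.47, 10.39, 10.01 and 10.13 in siAirn-001.1, and 10.14, 10.09, 9.75 and 9.88 in siAirn-001.2. Its numbers overlapped between the reagents but not within either, at -0.33 ± 0.07 (adjusted p = 0.00369). Ndrg1 (-0.32) and the clock repressor Bhlhe40 (-0.30) also passed, and P4ha1, P4ha2, Ankrd37, Car9 and Higd1a did not. Car9, the tumour-associated carbonic anhydrase often used as a hypoxia marker, stayed at 5.92 to 6.29 on all arrays, near their lower quartile of 6.00 to 6.20.

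**Figure D3:**
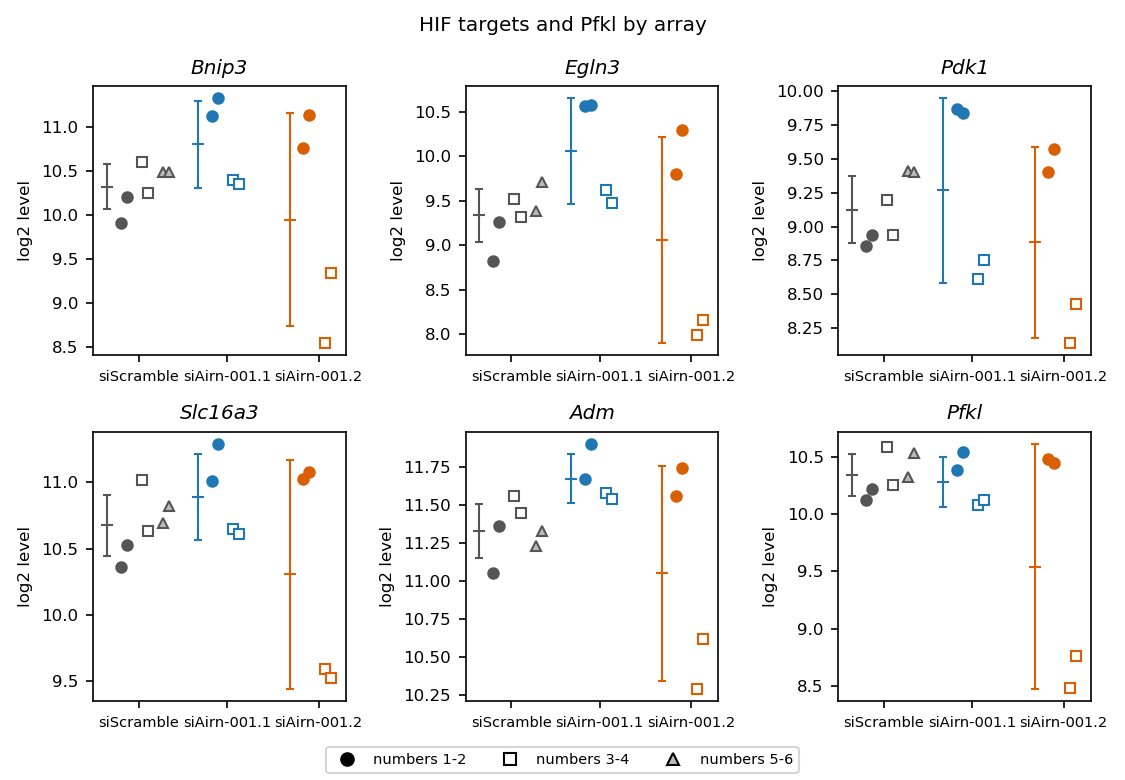
Log2 level of Bnip3, Egln3, Pdk1, Slc16a3, Adm and Pfkl on each array, by group, with marker shape for the replicate number and bars for the mean ± SD of each group (n = 6, 4 and 4). The open squares (arrays 3 and 4) of siAirn-001.2 are the lowest points in every panel, for example 8.49 and 8.76 for Pfkl.

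Of 15 members that are enzymes of glycolysis itself, Pfkl, Aldoc and Tpi1 were lower in siAirn arrays 3 and 4 (9.13% of all genes were called lower) and Hk1 was higher (8.18% of all genes). The median over the 15 was -0.03. Pfkl, the liver-type phosphofructokinase, was 10.12 to 10.58 in siScramble (median 10.29), 10.38, 10.54, 10.08 and 10.12 in siAirn-001.1, and 10.48, 10.44, 8.49 and 8.76 in siAirn-001.2. The difference of -1.1 ± 0.09 (adjusted p = 8.31e-06) joined -1.84 in siAirn-001.2, which is 3.57-fold lower, and -0.36 in siAirn-001.1. The muscle-type Pfkm (-0.14) and platelet-type Pfkp (-0.02) subunits were not called. Aldoc, an aldolase isoform best known from brain, was 10.75 to 11.09 in siScramble (median 10.84), 11.43, 11.53, 11.06 and 11.04 in siAirn-001.1, and 11.11, 11.54, 10.38 and 10.50 in siAirn-001.2. It differed by -0.66 ± 0.09 (adjusted p = 0.000424), while the ubiquitous Aldoa differed by -0.15 (adjusted p = 0.0868). Tpi1, triose phosphate isomerase, was 12.84 to 13.13 in siScramble (median 12.96), 13.25, 13.24, 12.91 and 12.93 in siAirn-001.1, and 13.10, 13.25, 12.78 and 12.92 in siAirn-001.2. Its difference was -0.32 ± 0.06 (adjusted p = 0.00351), with no overlap between the numbers.

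The other enzymes were not called between the numbers. Gapdh, often used as a reference gene, was between 13.72 and 13.80 on all 14 arrays, and its difference between the numbers had a 95% interval of -0.10 to 0.13. Gapdh has many near-identical pseudogenes that probes may also read. Gpi1 (0.09), Eno1 (0.11), Pgam1 (0.03) and Pgk1 (-0.20, adjusted p = 0.0938) were not called, nor was the regulator Pfkfb3, which makes the activator of phosphofructokinase (-0.17, adjusted p = 0.0869). Hk2 (-0.03), Pgam2 (-0.03) and Eno3 (-0.07) had joint differences near 0 that averaged opposite ones, at 0.29 and -0.35, 0.38 and -0.43, and 0.22 and -0.36 in siAirn-001.1 and siAirn-001.2. Of the glucose transporters, the insulin-responsive Slc2a4 (GLUT4) was 9.28 to 9.77 in siScramble (median 9.62), 10.18, 10.09, 9.65 and 9.75 in siAirn-001.1, and 9.82, 9.84, 8.70 and 8.86 in siAirn-001.2. It was 0.74 ± 0.09 lower on the log2 scale in arrays 3 and 4 (adjusted p = 0.000103). The constitutive transporter Slc2a1 (GLUT1) differed by -0.06 (adjusted p = 0.606), a mean of opposite differences in the reagents.

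The reagents were then compared for this split, in contrasts added after the data were seen. In siAirn-001.1, 14 members differed between the numbers (11.6% of all genes, 6.13% lower and 5.49% higher): 11 were lower in arrays 3 and 4, and Hk1 (0.43), Slc2a1 (0.39) and the muscle mutase Pgam2 (0.38) were higher. In siAirn-001.2, 15 members differed (10.7% of all genes, 5.74% lower) and all 15 were lower, with Bnip3 at -2.01 ± 0.21, Egln3 at -1.97 ± 0.17 and Pfkl at -1.84 ± 0.13. The test of the difference between the reagents called 7 members, all lower with siAirn-001.2 (3.08% of all genes, 1.71% lower). The differences there were -1.48 ± 0.18 for Pfkl (adjusted p = 0.00168), -0.98 for Adm and Slc16a3, -0.89 for Slc2a1, -0.82 for Pgam2, -0.65 for Hk2 and -0.59 for Eno3. For Slc2a1 the reagents went opposite ways, at 0.39 and -0.50. The count of 14 in siAirn-001.1 fell to 4 without its array 1 or 3, to 5 without array 2 and to 7 without array 4. The count of 7 fell to 2 without siAirn-001.1 array 1 and to 4 without siAirn-001.2 array 3, and the calls of Hk2 and Eno3 were each lost in 12 of 14 such fits. Egln3 (-0.95, adjusted p = 0.0557) and Bnip3 (-1.16, adjusted p = 0.0592) missed the threshold. For Pdk1 the difference between the reagents was -0.03, with a 95% interval of -0.38 to 0.33. Airn itself differed between the reagents by -0.11 (adjusted p = 0.839). Both arrays 3 and 4 of siAirn-001.2 were below every other array in 17 of 37 members, as in 5.95% of all genes. At the other end, both arrays 1 and 2 of siAirn-001.1 were above every other array in 6 members (Slc2a4, Pdk1, Egln3, Kdm3a, Bhlhe40 and Mxi1), as in 4.49% of all genes.

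No member was called between the same numbers in siScramble. Arrays 3 and 4 minus arrays 1 and 2 called 0 of 37 members and 0.0% of all genes in limma, and 3 members had an unadjusted p under 0.05. The differences of largest size were positive, 0.38 for Egln3 and 0.38 for Slc16a3 (adjusted p = 0.955 for both). Tested against the siAirn split, 9 members differed (3.35% of all genes, 1.52% lower), all lower in siAirn: Egln3 (-1.88 ± 0.21, adjusted p = 0.000774), Bnip3 (-1.80 ± 0.26, adjusted p = 0.00353), Slc16a3 (-1.39), Pdk1 (-1.36), Pfkl (-1.34), Adm (-1.0), Aldoc (-0.82), Slc2a4 (-0.76) and Mxi1 (-0.66). Without siScramble array 3 the count was 5.

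The matrix genes, however, divided the siScramble arrays between 1 to 4 and 5 and 6, so these were compared too, again after the data were seen. Of 37 members, 4 differed (5.13% of all genes, 2.73% higher and 2.4% lower): Eno3 was higher in arrays 1 to 4 (0.69 ± 0.09, adjusted p = 0.000822), and Bhlhe40 (-0.59), Pdk1 (-0.42) and Vegfa (-0.32) were lower. Without siScramble array 5 the count was 1, and without arrays 1, 2 or 6, each in turn, it was 2. Set against this division, the siAirn split was lower for 8 members (2.0% of all genes, 1.21% lower), among them Bnip3 (-1.19), Egln3 (-1.17), Pfkl (-0.96) and Slc16a3 (-0.89). Eno3 was also among them (-0.76), through its 0.69 in siScramble, as it was not called in the siAirn split. The count of 8 was 2 without siScramble array 5, 4 without array 6 and 5 without array 3.

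**Figure D4:**
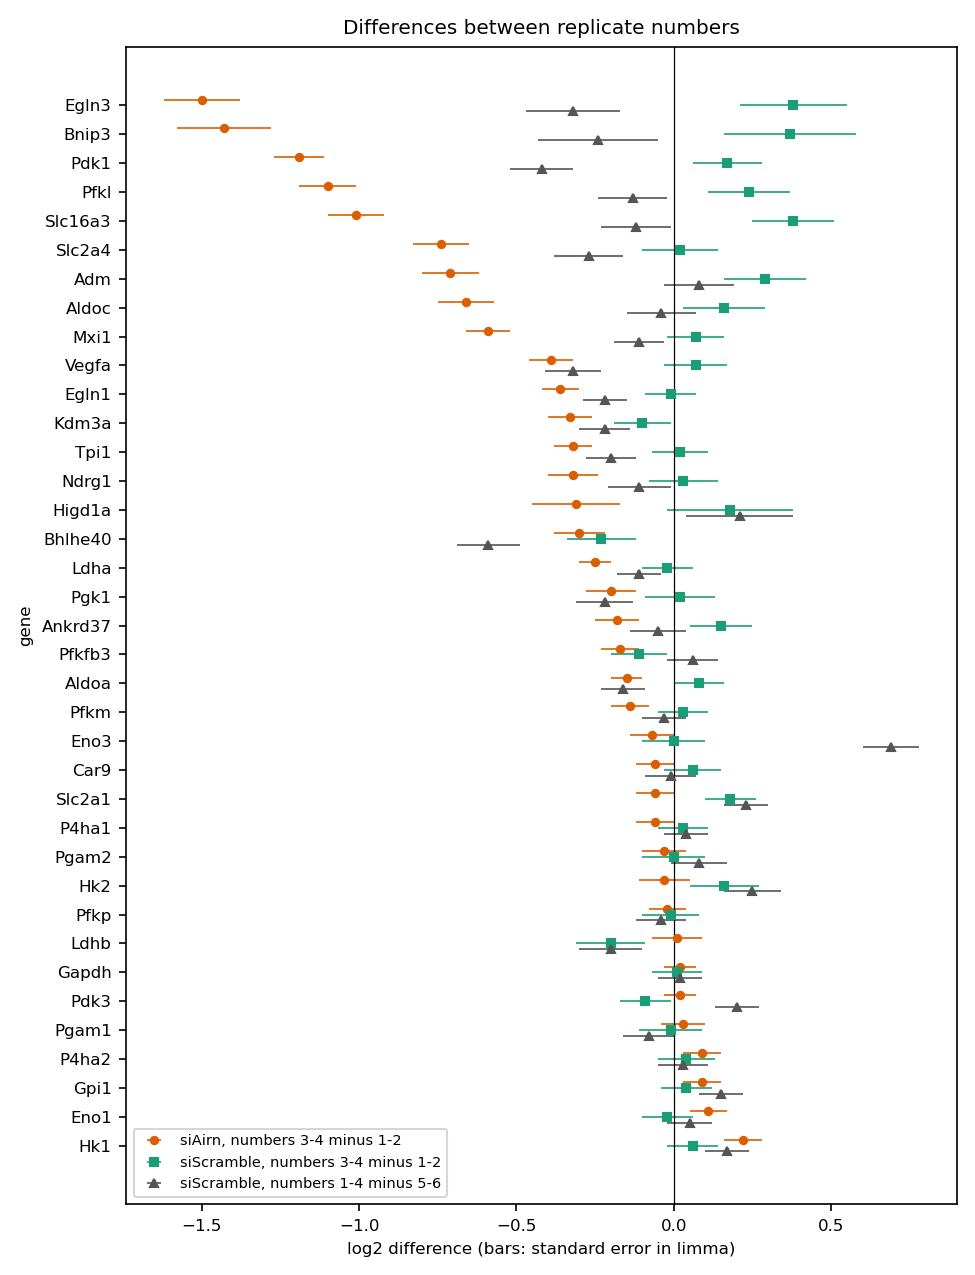
Log2 difference of each member between replicate numbers, for siAirn arrays 3 and 4 minus 1 and 2 (circles), siScramble arrays 3 and 4 minus 1 and 2 (squares) and siScramble arrays 1 to 4 minus 5 and 6 (triangles), with the standard error in limma as bars. The circles of Egln3 (-1.50), Bnip3 (-1.43) and Pdk1 (-1.19) lie farthest to the left, while the squares of Egln3 (0.38) and Slc16a3 (0.38) lie to the right of 0.

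Arrays with nearer means of the 8 fibroblast markers were also set beside each other. They were matched on these markers after the data were seen, so likeness in the markers is no result. The means were 7.22 to 7.31 in siAirn arrays 3 and 4 and 7.41 to 7.48 in siScramble arrays 1 to 4, without overlap. For siAirn arrays 3 and 4 minus siScramble arrays 1 to 4, Dcn differed by 0.17 (adjusted p = 0.645) and Lum by -0.03 (adjusted p = 0.963), while Postn was lower by 0.94 on the log2 scale (-0.94, adjusted p = 9.14e-05). In that comparison 13 members were called (9.23% of all genes, 5.04% lower and 4.18% higher), 10 of them lower: Pfkl (-0.93 ± 0.09, adjusted p = 8.01e-05), Bnip3 (-0.58), Slc16a3 (-0.54), Pdk1 (-0.50), Ndrg1 (-0.40), Adm (-0.35), Pgam2 (-0.29), P4ha1 (-0.26), Pfkfb3 (-0.23) and Slc2a1 (-0.22). Ldhb (0.47), Bhlhe40 (0.35) and Eno3 (0.25) were higher. Some of these means joined reagents that lay apart. For Eno3, siAirn-001.1 arrays 3 and 4 (11.46 and 11.59) were above siScramble arrays 1 to 4 (10.74 to 10.82) and siAirn-001.2 arrays 3 and 4 (10.44 and 10.65) below them, and the call was lost in 11 of 14 fits that left out 1 array. Against siScramble arrays of the same number, Slc2a1 differed by 0.19 (adjusted p = 0.372) in siAirn-001.1 arrays 3 and 4 and by -0.80 in those of siAirn-001.2, and Pgam2 by 0.11 (adjusted p = 0.666) and -0.68. Those calls were lost in 7 and 6 of the 14 fits. The count of 13 was 5 without siScramble array 2, 6 without siScramble array 3 or siAirn-001.1 array 3, and 8 without siAirn-001.2 array 3. For siAirn arrays 1 and 2 minus siScramble arrays 5 and 6, where none of the 8 fibroblast markers was called, 3 members were higher (4.12% of all genes, 2.2% higher): Eno3 (1.01 ± 0.09, adjusted p = 0.000116), Egln3 (0.76 ± 0.15, adjusted p = 0.0111) and Aldoc (0.51 ± 0.11, adjusted p = 0.024). The count was 1 without siScramble array 5 and 6 without either array 3 or 4 of siAirn-001.2.

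Set against siScramble arrays of the same number instead, siAirn arrays 1 and 2 had 15 members higher and none lower (12.8% of all genes were called, 5.94% higher), led by Egln3 (1.27 ± 0.15, adjusted p = 0.00117) and Bnip3 (1.03 ± 0.13, adjusted p = 0.00127). Against siScramble arrays 5 and 6 the same arrays had 3 members higher. Fits by number held only the arrays of those numbers, and the labels do not say that equal numbers belong together. In 9 members all 4 siAirn arrays numbered 1 or 2 lay above all 6 siScramble arrays, those numbered 5 and 6 included, as in 5.07% of all genes. In the same way siAirn arrays 3 and 4 had 1 member higher, Ldhb, and 4 lower (1.55% of all genes were called, 0.891% higher and 0.664% lower): Pfkl (-1.05 ± 0.12, adjusted p = 0.0064), Egln3 (-0.61 ± 0.10, adjusted p = 0.0227), Pdk1 and Slc16a3. By reagent, siAirn-001.2 arrays 3 and 4 had 10 members lower (3.28% of all genes were called, 1.82% lower), and siAirn-001.1 arrays 3 and 4 had Eno3, Ldhb and Bhlhe40 higher and none lower (4.77% of all genes were called, 2.63% higher). The siAirn-001.2 means of Egln3 and Bnip3 therefore combined arrays above siScramble with arrays below it.

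Other genes of these pathways were read from lists that share no gene with the 37. Of 33 other genes induced by hypoxia, 13 were lower and 2 higher in siAirn arrays 3 and 4 than in 1 and 2, with a median of -0.09 (over all genes, 9.13% were called lower and 8.18% higher in this comparison). The largest drop, -1.75 ± 0.13 (3.37-fold, adjusted p = 4.33e-06), was in the mitochondrial adenylate kinase Ak4, followed by Fam162a (-0.78) and Zfp292 (-0.56). Ak4 was 8.41 to 9.38 in siScramble, 10.15, 10.15, 9.47 and 9.43 in siAirn-001.1, and 9.52, 9.84, 6.63 and 7.14 in siAirn-001.2, with both arrays 3 and 4 of siAirn-001.2 below all others. Its drop was larger with siAirn-001.2 (-2.80) than with siAirn-001.1 (-0.70), a difference of -2.09 ± 0.26 (adjusted p = 0.00178). Car12 (0.74), a carbonic anhydrase, was higher. Edn1 (0.34), the vasoconstrictor endothelin, was called higher jointly, but it was 0.80 in siAirn-001.2 and -0.12 (adjusted p = 0.628) in siAirn-001.1, and these differed (adjusted p = 0.0136). Set against the siScramble split of the same numbers, 4 of the 33 were lower, Ak4 and Fam162a among them, and 1 was higher (3.35% of all genes). Set against siScramble arrays 1 to 4 minus 5 and 6, only Ak4 and Plod1 were lower and none was higher (2.0% of all genes). Ddit4, Fam162a and Car12 were themselves called between these siScramble arrays. Of 9 measured genes for the step from pyruvate to acetyl-CoA, 3 were lower (Pdk2 at -0.61, Pdk4 at -0.29 and Pdpr at -0.28) and Dlat was higher (0.22), against the same shares of all genes. For Pdk4 the reagents differed (adjusted p = 0.0271), at -0.54 in siAirn-001.1 and -0.04 (adjusted p = 0.833) in siAirn-001.2.

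Among 37 other genes of glycolysis and glucose use, 6 were lower and 3 higher, beside 9.13% and 8.18% of all genes, with a median of -0.05. The higher ones included Pgd (0.41) and G6pdx (0.30), enzymes of the pentose phosphate pathway, while Pgls of that pathway was among the lower ones. Of 16 genes of the oxygen-sensing machinery, Arnt (0.27) and Arnt2 (0.27), the partners of the HIF alpha subunits, were higher, and Crebbp (-0.30) and Cited2 (-0.23) were lower, which is 4 of 16 where 17.3% of all genes were called. The alpha subunit genes were not called, at 0.03 for Hif1a (95% interval -0.10 to 0.16) and 0.01 for Epas1 (95% interval -0.13 to 0.15). The level of these subunits is known to be set mainly by degradation of the protein, which arrays do not measure. Against siScramble, the mean of both reagents had Pdk4 (0.44) and Pdp2 (0.40) higher among the pyruvate genes, Pck2 (0.46) higher and Pkm2 (-0.21) lower among the glycolysis genes, and Ier3 (0.36) higher and Wsb1 (-0.45) lower among the hypoxia genes. That is 2 of 9, 2 of 37 and 2 of 33, and 0 of the 16 oxygen-sensing genes in limma, in a comparison that called 4.13% of all genes.

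The authors' deposited table gives a comparison of all siAirn arrays with siScramble. In the authors' deposited table, 2 of the 37 members had an adjusted p under 0.05, as 1.45% of genes did there. They were Ldhb (log2 difference 0.398) and P4ha1 (-0.221), both with an adjusted p of 0.017323 in the authors' deposited table, while Eno3 (0.516) had 0.275546.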

How the data were processed

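Gene expression was measured in 14 arrays (siScramble 6, siAirn-001.1 4, siAirn-001.2 4). The authors deposited log2 expression values, and per the submitters' processing notes RMA and limma were used. The sources used here do not give the array model, the genome build or the annotation. The authors' deposited table also holds their p-values and adjusted p-values. The deposited log2 values were fitted for all 20193 genes, without a filter or further normalisation, with limma 3.58.1 in R 4.3.3. One fit used 3 group means (11 residual degrees of freedom), and comparisons between replicate numbers used 7 means of group and number (7 residual degrees of freedom). Tests were two-sided with Benjamini-Hochberg adjustment over all genes and a threshold of 0.05, and errors after log2 differences are standard errors. The fit was tested on simulated data. The members, pathway lists and comparisons were chosen with earlier results of these data known, and 7 comparisons were added after the data were seen. Array values were given for the 15 members of smallest adjusted p and, outside that rule, for Bhlhe40. P4ha1 was given as ranges. Up to 3 called genes each way were named from other lists. Same-numbered arrays of the 2 reagents correlated in their deviations from the group means (0.318, 0.534, 0.364 and 0.431). Arrays of different numbers were not compared in this way, so these values do not show pairing by the single number. The main fits did not pair arrays, and the number entered as a block only in alternative fits. Promoter windows of 250 bases came from RefSeq's table of GRCm38.p6. Alternatives were array centring, array weights, a variance trend, leaving out the 25% of genes with the lowest means, blocks, number subsets and leaving out each array.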

Additional observations from a re-analysis of the deposited data

Results flagged for a closer look

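In a test of the highest and lowest array of each group, 3 of 111 combinations of member and group held an array apart from the others, where chance flags about 1 in 20. The gap divided by the range was 0.888 for Pfkp in siAirn-001.2 array 2 (11.90 against 11.63 to 11.66), 0.868 for Ldhb in the same array (11.11 against 10.95 to 10.97) and 0.706 for Ldhb in siScramble array 3 (10.27 against 10.66 to 10.82).

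The difference of arrays 3 and 4 from arrays 1 and 2 was not equal in siAirn and siScramble, by the interaction in limma, for 9 members: Egln3 (-1.88), Bnip3 (-1.80), Slc16a3 (-1.39), Pdk1 (-1.36), Pfkl (-1.34), Adm (-1.0), Aldoc (-0.82), Slc2a4 (-0.76) and Mxi1 (-0.66). It was not equal in the 2 reagents for 7: Pfkl (-1.48), Adm (-0.98), Slc16a3 (-0.98), Slc2a1 (-0.89), Pgam2 (-0.82), Hk2 (-0.65) and Eno3 (-0.59). Against the division of siScramble arrays 1 to 4 and 5 and 6, it differed for 8: Bnip3 (-1.19), Egln3 (-1.17), Pfkl (-0.96), Slc16a3 (-0.89), Adm (-0.79), Pdk1 (-0.77), Eno3 (-0.76) and Mxi1 (-0.48).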

How the results depend on the processing

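No difference called in the main fits changed sign under the alternatives run. Between the number subsets, however, called differences from siScramble did reverse. For the mean of both reagents, Egln3 was 1.27 among arrays 1 and 2 alone and -0.61 among arrays 3 and 4 alone. Pdk1 was 0.77 and -0.59, and Slc16a3 0.66 and -0.73, in the same order. Of 1784 values of single members under alternatives, 1515 kept their call and 269 lost it. The count of 17 members between siAirn arrays 3 and 4 and arrays 1 and 2 was 14 to 18 when each array was left out. On such omission the other counts ranged as follows: siAirn-001.1 against siScramble 2 to 4, siAirn-001.2 against siScramble 0 to 2, the mean of both 2 to 3, siAirn-001.2 against siAirn-001.1 0 to 3, the siScramble numbers 0 throughout, the siAirn against the siScramble split 5 to 10, the split in siAirn-001.1 4 to 16 and in siAirn-001.2 10 to 16, their difference 2 to 7, siScramble arrays 1 to 4 against 5 and 6 1 to 4, the siAirn split against that division 2 to 9, siAirn arrays 1 and 2 against siScramble 5 and 6 1 to 6, and siAirn arrays 3 and 4 against siScramble 1 to 4 5 to 14.

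The order of counts here is siAirn-001.1, siAirn-001.2 and their mean against siScramble (3, 1 and 3 as reported), then siAirn-001.2 against siAirn-001.1 (0). The share of all genes called stands after each count. With array weights they were 7 (9.44%), 7 (4.8%), 5 (9.54%) and 2 (2.52%). With consecutive numbers as a replicate block they were 5 (11.4%), 4 (4.66%), 6 (9.69%) and 3 (3.35%). With the number as a replicate block they were 4 (9.14%), 2 (2.79%), 3 (7.68%) and 1 (1.45%). Both block fits applied the number to siScramble as well, although same-numbered siScramble and siAirn arrays had correlations of only -0.43 to 0.23 in their deviations. Numbers 5 and 6 occur only in siScramble, so those arrays did not enter the differences from siScramble in either block fit. The log2 differences of the block fits therefore equalled those without siScramble arrays 5 and 6, and these fits are not separate checks. Without siScramble arrays 5 and 6 the counts were 3 (6.61%), 2 (2.05%), 3 (5.67%) and 1 (1.06%). Arrays 1 and 2 alone gave 14 (11.5%), 7 (5.61%) and 15 (12.8%) against siScramble. Arrays 3 and 4 alone gave 10 (3.28%) for siAirn-001.2, 5 (1.55%) for the mean and 12 (9.72%) between the reagents. Centring the arrays on their medians gave 0 (0.782%) for siAirn-001.2. A variance trend gave 14 (5.13%) for the siAirn against the siScramble split, 11 (5.2%) for the difference between the reagents, 9 (7.94%) for siScramble arrays 1 to 4 against 5 and 6, and 6 (5.51%) for siAirn arrays 1 and 2 against siScramble 5 and 6, where leaving out the 25% of genes with the lowest means gave 5 (6.83%). The causes were not tested. Values near the arrays' lower quartile, such as those of Car9, may lie close to background, and small differences there were not measurable.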
